A study of Mus musculus with 4 samples.

Results

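The genes described here are 48 genes of the cell cycle in mouse pancreas sections with acute pancreatitis. They were chosen by name from a fixed list of replication, mitosis and cell cycle control genes. No measured value enters the rule, except that genes without counts would be dropped. The list itself was set with earlier results of these data known. All 48 genes had counts in the deposited matrices, out of 20388 genes with at least 1 count. The list holds 9 genes of replication licensing and the replicative helicase, 5 genes of DNA synthesis, 21 genes of mitosis, 9 cyclins, kinases and factors that drive cells out of G1, and 4 inhibitors of cyclin-dependent kinases. Genes named Olfr, which encode odorant receptors and have no known role in the exocrine pancreas, were measured beside them as a background level. A single gene can also lie below that level. There were 1107 Olfr genes with counts.

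A cell that enters the cycle first raises D-type cyclins, which pair with Cdk4 or Cdk6 and release E2F factors from the retinoblastoma protein. E2F factors then switch on the licensing and synthesis genes of late G1 and S phase, and a later program of mitosis genes follows in G2. Acinar cells of the adult pancreas divide rarely, and in caerulein pancreatitis they lose enzyme content and re-enter the cycle during regeneration, while infiltrating immune cells bring cycling cells of their own.

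The study placed 4 formalin-fixed pancreas sections on CytAssist Visium slides, in which pairs of gene probes are counted as unique molecular identifiers (UMIs) at small barcoded spots. A spot is a small region that can hold several cells of different types. All 4 sections came from C57Bl/6 mice that carried the Pdx1-Cre transgene. Of these, 2 sections are labelled as wild type for Ehmt2, which encodes the histone methyltransferase G9a, and are called Ehmt2+/+. The other 2 sections are labelled as knockout and are called Ehmt2fl/fl, and both names stand for the labels. Pdx1 drives Cre in the pancreatic epithelium, so blood, stromal and vessel cells of the Ehmt2fl/fl animals keep the gene. All animals were fasted for 12 h, received 50 μg/kg caerulein in each of 8 hourly injections and were killed 18 h after the first dose. The methods put the pancreatitis cohorts at 4 weeks of age. There was no section from an untreated animal, so every comparison below is between genotypes under caerulein. The question is whether loss of Ehmt2 went with other levels of proliferation and arrest genes in the injured pancreas. Replicate 1 is given before replicate 2 throughout.

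The sections differed widely in depth and in the share of digestive enzyme transcripts. Spots with at least 500 UMIs numbered 6144 and 7871 in the Ehmt2+/+ sections and 6483 and 6462 in the Ehmt2fl/fl sections, and only these 26960 spots were used. They held 43784930 and 7845575 UMIs in the Ehmt2+/+ sections and 6643747 and 7938386 UMIs in the Ehmt2fl/fl sections. The 37 acinar enzyme genes found, which mark the exocrine pancreas, took 65.2% and 54.4% of UMIs in the Ehmt2+/+ sections but 22.9% and 22.1% in the Ehmt2fl/fl sections. The median Olfr gene stood at 0.251 and 4.97 UMIs per 1000000 UMIs (CPM) in the Ehmt2+/+ sections and at 8.28 and 12.6 CPM in the Ehmt2fl/fl sections. Ehmt2+/+ replicate 1 thus stood apart from the other 3 sections in depth and in background. Counts of Ehmt2 itself did not check the labels, since Ehmt2 stood at 19.8 and 3.95 CPM where the label is Ehmt2+/+ and at 10.1 and 12.1 CPM where it is Ehmt2fl/fl. Outside Ehmt2+/+ replicate 1, where 0% of Olfr genes reached it, Ehmt2 was matched or exceeded by 35.2% to 73.9% of Olfr genes. The Y-linked gene Ddx3y had 1 and 0 UMIs in the Ehmt2+/+ sections against 53 and 92 in the Ehmt2fl/fl sections. It was matched or exceeded by 100% of Olfr genes in both Ehmt2+/+ sections and by 53.1% and 58.9% in the Ehmt2fl/fl sections. The Y-linked gene Eif2s3y likewise had 1 and 0 UMIs against 97 and 139. Sex and genotype therefore cannot be told apart. Both replicate 1 sections lay on 1 slide and both replicate 2 sections on another, with each genotype always in the same capture area, so that area and genotype cannot be told apart either.

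The promoters of licensing and of mitosis genes held different short motifs, given here as counts with no test. Of the 48 members, 38 had a RefSeq promoter window of 300 bases on the GRCm38.p6 assembly, running from 250 bases before the transcription start to 50 after it. The E2F site was searched as TTTCCCGC, TTTCGCGC, TTTGCCGC or TTTGGCGC on both strands. It was present in 6 of 7 licensing genes, against 704 of 27025 genes in the whole table, or 2.6%. It was present in 1 of 5 synthesis genes, 1 of 16 mitosis genes, 1 of 6 genes of G1 and 1 of 4 inhibitors. The cell cycle homology region (CHR), an element bound by the DREAM and MuvB complexes in late cell cycle genes, was searched as TTTGAA or TTCGAA on both strands. It was present in 13 of 16 mitosis genes, against 21.7% of all genes in the table. The CHR letters were found in 2 of 7 licensing genes, namely Mcm2 and Mcm7, and in 0 of 5 synthesis genes, 0 of 6 genes of G1 and 0 of 4 inhibitors. The CCAAT letters, bound by NF-Y, were spread over the classes, with 15 of 16 mitosis genes, 5 of 7 licensing genes, 4 of 5 synthesis genes, 3 of 4 inhibitors and 2 of 6 genes of G1, beside 41.1% of all genes. A match of letters is a description and not a measured binding site.

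Promoters of 3 licensing genes are shown because they carry the E2F letters and their counts stood above background in all 4 sections. Each line gives the 200 bases before the RefSeq start on GRCm38.p6, read 5′ to 3′ on the strand of the gene, and capitals mark the E2F matches. In Mcm5 and Mcm6 matches on opposite strands overlap and run together.
Mcm5 (chr8:75109309-75109508, plus strand): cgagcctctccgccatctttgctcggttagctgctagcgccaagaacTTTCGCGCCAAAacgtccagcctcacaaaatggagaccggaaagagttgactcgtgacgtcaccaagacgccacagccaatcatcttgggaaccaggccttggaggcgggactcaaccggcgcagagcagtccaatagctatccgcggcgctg
Mcm6 (chr1:128359706-128359905, minus strand): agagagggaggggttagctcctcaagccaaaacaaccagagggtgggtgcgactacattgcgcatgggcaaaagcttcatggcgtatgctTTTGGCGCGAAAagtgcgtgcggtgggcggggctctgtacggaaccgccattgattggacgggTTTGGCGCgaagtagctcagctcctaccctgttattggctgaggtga
Cdc6 (chr11:98907951-98908150, plus strand): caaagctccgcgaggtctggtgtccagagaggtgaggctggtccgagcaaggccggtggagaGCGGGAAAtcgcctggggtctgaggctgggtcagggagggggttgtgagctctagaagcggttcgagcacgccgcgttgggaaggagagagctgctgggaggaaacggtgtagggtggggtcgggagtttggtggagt

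Promoters of 4 mitosis genes are shown because their levels relative to background, described below, differ although each holds the CHR letters. Capitals mark the CHR matches on either strand, and in Cdk1 also 1 E2F match of 8 bases.
Cdk1 (chr10:69352913-69353112, minus strand): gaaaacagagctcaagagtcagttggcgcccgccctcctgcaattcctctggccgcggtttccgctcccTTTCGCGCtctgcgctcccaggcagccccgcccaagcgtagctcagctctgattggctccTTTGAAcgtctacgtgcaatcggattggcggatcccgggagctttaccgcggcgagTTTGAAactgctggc
Ube2c (chr2:164769729-164769928, plus strand): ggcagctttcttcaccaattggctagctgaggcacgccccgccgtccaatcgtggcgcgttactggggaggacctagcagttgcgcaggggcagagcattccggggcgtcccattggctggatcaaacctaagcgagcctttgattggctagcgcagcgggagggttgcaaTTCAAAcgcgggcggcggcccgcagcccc
Top2a (chr11:99024190-99024389, minus strand): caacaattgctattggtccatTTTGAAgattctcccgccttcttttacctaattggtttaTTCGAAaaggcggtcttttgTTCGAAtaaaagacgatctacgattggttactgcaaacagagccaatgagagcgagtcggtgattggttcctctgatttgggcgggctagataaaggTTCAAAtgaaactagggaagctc
Mki67 (chr7:135716380-135716579, minus strand): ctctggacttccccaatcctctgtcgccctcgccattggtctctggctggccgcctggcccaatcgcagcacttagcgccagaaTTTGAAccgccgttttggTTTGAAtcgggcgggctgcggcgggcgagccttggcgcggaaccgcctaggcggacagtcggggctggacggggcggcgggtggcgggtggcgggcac

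The members stood at very different distances from the Olfr background. A member was taken as above background in a section when fewer than 5% of Olfr genes had at least its count there. By this measure 33 and 30 members were above background in the Ehmt2+/+ sections and 30 and 29 in the Ehmt2fl/fl sections. In all 4 sections together 25 of 48 members, or 52.1%, were above background, where 39.3% of all genes with counts were. Licensing genes reached this in 8 of 9 cases, synthesis genes in 4 of 5, G1 genes in 6 of 9 and inhibitors in 3 of 4, but mitosis genes in 4 of 21. Olfr genes are not the only possible yardstick. Against vomeronasal and taste receptor genes only 4 members were above background in all 4 sections, namely Ccnd2, Cdk4, Cdkn1a and Cdkn1b. The 95th percentile of these receptor genes reached 33.9 to 54.7 CPM outside Ehmt2+/+ replicate 1. Their medians were 0.251 and 5.23 CPM in the Ehmt2+/+ sections and 7.53 and 13 CPM in the Ehmt2fl/fl sections, close to the Olfr medians. The share of all genes above this second yardstick was not computed, so the count of 4 is no result about the members.

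**Figure D1:**
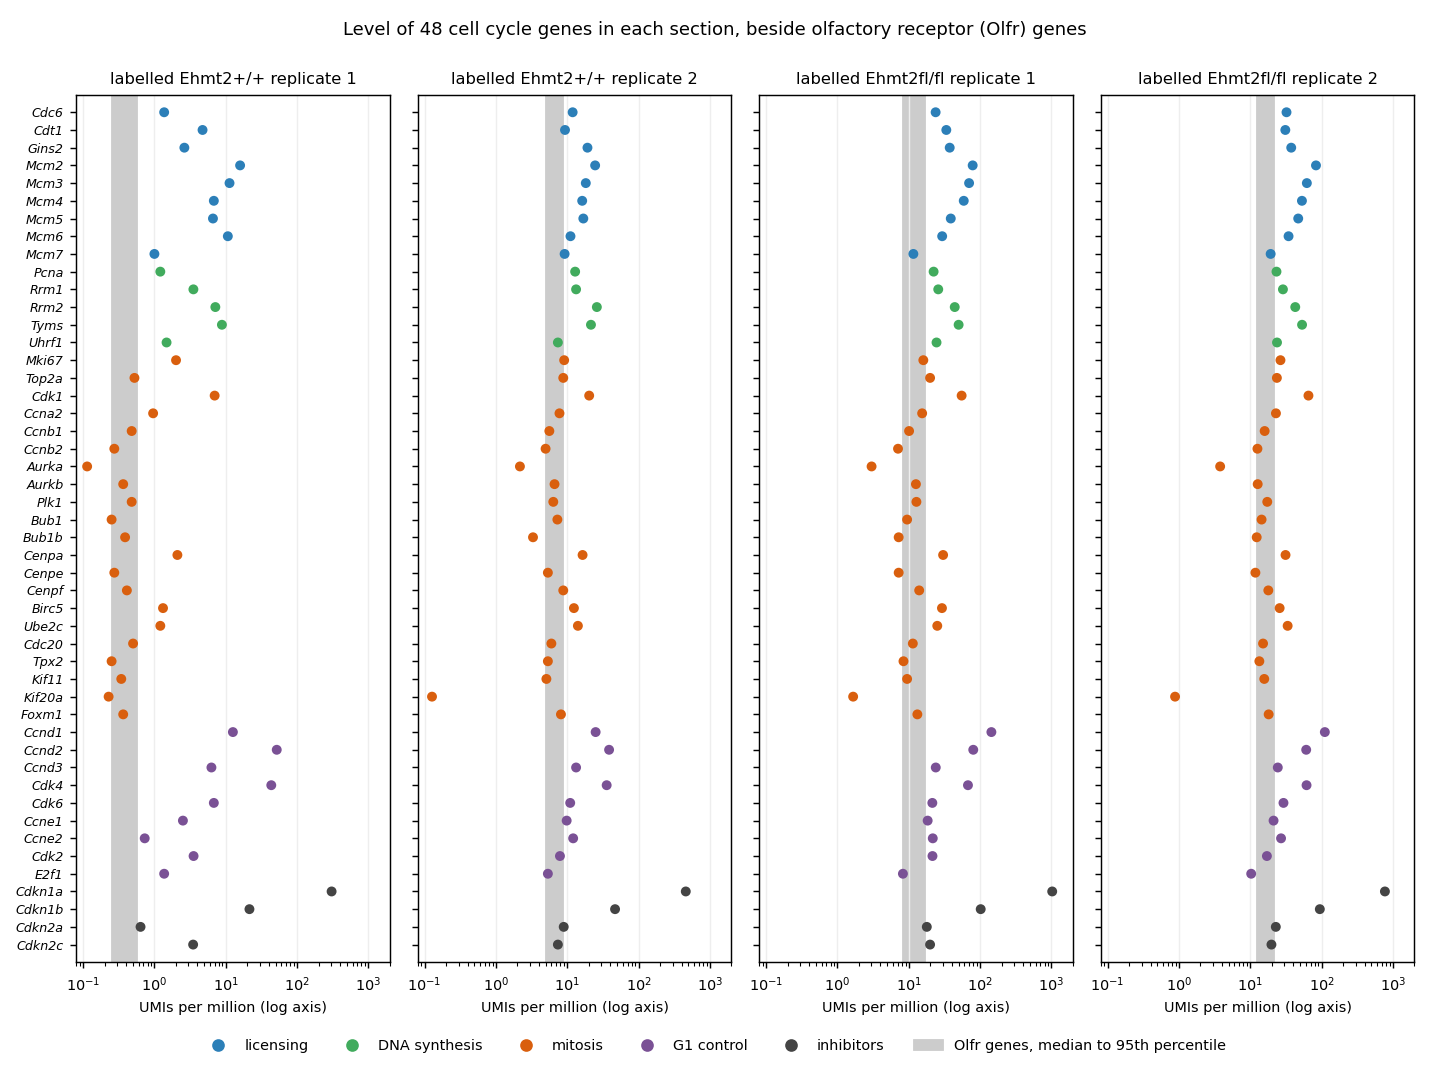
Level of each of the 48 members in CPM (log axis) in each of the 4 sections, grouped by class, with a grey band from the median to the 95th percentile of the Olfr genes of that section. The licensing genes lie above the band in most cases, whereas 13 of 21 mitosis genes lie in or below it in every section.

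Licensing genes load and form the helicase that opens replication origins. Mcm2, a subunit of the hexameric MCM2-7 helicase, had 15.9 and 24.6 CPM in the Ehmt2+/+ sections and 78.7 and 83.4 CPM in the Ehmt2fl/fl sections, from 193 to 695 UMIs. Mcm3, another subunit of the ring, had 11.3 and 18.2 CPM against 70.1 and 62.1 CPM. For both genes the genotypes did not overlap on this scale, where 91.4% of all genes with at least 10 UMIs were likewise higher in both Ehmt2fl/fl sections. Of the Olfr genes, 0% reached Mcm2 or Mcm3 in any section. Mcm4 had 6.81 and 16.2 CPM in the Ehmt2+/+ sections against 59.0 and 53 CPM in the Ehmt2fl/fl sections. Mcm5 had 6.62 and 16.8 CPM against 38.8 and 47 CPM, and Mcm6 had 10.7 and 11.1 CPM against 29.4 and 34.4 CPM. Cdc6 and Cdt1 bring the helicase to origins. Cdc6 had 1.37 and 11.9 CPM against 23.8 and 32.2 CPM, and Cdt1 had 4.73 and 9.30 CPM against 33.6 and 31.0 CPM. Gins2, a subunit of the GINS complex that activates the helicase, had 2.63 and 19.2 CPM against 37.5 CPM in both Ehmt2fl/fl sections. Mcm7 was the member of this class that did not clear the background in the Ehmt2fl/fl sections. It had 11.6 and 19.3 CPM there, which 24.1% and 10.5% of Olfr genes matched or exceeded.

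DNA synthesis genes supply nucleotides and hold the polymerase on its template. Tyms, the thymidylate synthase, had 8.84 and 21.5 CPM in the Ehmt2+/+ sections and 50.0 and 53.2 CPM in the Ehmt2fl/fl sections. Rrm2, the cell cycle-regulated subunit of ribonucleotide reductase, had 7.15 and 26 CPM against 44.1 and 42.7 CPM. Both exceeded nearly the whole Olfr distribution, with at most 0.0903% of Olfr genes at or above them. Rrm1, the large subunit of the same enzyme, had 3.52 and 13.3 CPM against 25.9 and 28.7 CPM. Pcna, the sliding clamp of the polymerases, had 1.21 and 12.9 CPM against 22.3 and 23.3 CPM. Uhrf1, which guides maintenance DNA methylation at replication forks, had 1.48 and 7.39 CPM against 24.5 and 23.7 CPM. In Ehmt2+/+ replicate 2 this level of Uhrf1 was matched or exceeded by 15.8% of Olfr genes, and it was above background in the other 3 sections.

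Mitosis genes were mostly at the level of the Olfr genes. Cdk1, the kinase that drives entry into mitosis, had 6.99 and 20.3 CPM in the Ehmt2+/+ sections and 55.1 and 65.4 CPM in the Ehmt2fl/fl sections, and 0% of Olfr genes reached it in any section. Cenpa, the centromeric variant of histone H3, had 2.10 and 16.4 CPM against 30.3 and 31.2 CPM. Birc5, which encodes survivin of the chromosomal passenger complex, had 1.32 and 12.4 CPM against 29.2 and 25.8 CPM. Ube2c, the ubiquitin-conjugating enzyme of the anaphase-promoting complex, had 1.21 and 14.1 CPM against 25.1 and 33.4 CPM. These 4 genes were the mitosis genes above background in all 4 sections.

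The proliferation markers Mki67 and Top2a were above background in 3 sections each. Mki67, which encodes the Ki-67 antigen, had 2.01 and 9.05 CPM in the Ehmt2+/+ sections and 16.0 and 26.5 CPM in the Ehmt2fl/fl sections, and in Ehmt2fl/fl replicate 1 it was matched or exceeded by 6.41% of Olfr genes. Top2a, the topoisomerase that untangles sister chromatids, had 0.525 and 8.79 CPM against 19.9 and 23.6 CPM, and in Ehmt2+/+ replicate 1 8.22% of Olfr genes reached it. A further 13 mitosis genes were above background in 0 of 4 sections, among them Ccnb1, Plk1, Aurka, Aurkb, Bub1, Bub1b, Cdc20, Kif11 and Foxm1. Relative to the Olfr median, the median of these 13 genes was 1.36 and 1.08 times as high in the Ehmt2+/+ sections and 1.15 and 1.06 times as high in the Ehmt2fl/fl sections. Their CPM therefore moved between sections much as the Olfr median did. Ccnb1, the cyclin partner of Cdk1, illustrates this with 0.480 and 5.61 CPM against 10.1 and 15.9 CPM. Kif20a, a kinesin of cytokinesis, had 10 and 1 UMIs in the Ehmt2+/+ sections and 11 and 7 in the Ehmt2fl/fl sections. The levels of these 13 genes were not told apart from background.

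Among members above background in all 4 sections, those of G1 had both the highest ratio of mean CPM between genotypes, in Ccnd1, and the lowest ratios, in Ccnd2 and Cdk4. Ccnd1, the cyclin D1 that responds to growth signals, had 12.6 and 25.0 CPM in the Ehmt2+/+ sections and 144 and 111 CPM in the Ehmt2fl/fl sections. Its mean was 6.78-fold higher in the Ehmt2fl/fl sections (127 ± 23.5 against 18.8 ± 8.73 CPM, SD, n = 2 per group), where the Olfr background was also higher. Ccnd2 had 51.9 and 38.6 CPM against 80.2 and 60.8 CPM. Cdk4, the kinase partner of the D cyclins, had 43.5 and 35.7 CPM against 67.6 and 61.5 CPM. The Ccnd2 and Cdk4 means were 1.56-fold and 1.63-fold higher in the Ehmt2fl/fl sections. Ccnd3 had 6.30 and 13.3 CPM against 23.9 and 24.3 CPM, and Cdk6 had 6.81 and 11 CPM against 21.4 and 29.2 CPM. Ccne2, an E-type cyclin of the G1 to S transition, had 0.731 and 12.1 CPM against 21.7 and 27.0 CPM. Its relative Ccne1 had 2.51 and 9.81 CPM against 18.4 and 21.2 CPM and was above background in 3 sections. Cdk2, the partner of the E cyclins, was above background in 2 sections and the transcription factor gene E2f1 in 1.

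The inhibitors restrain cyclin-dependent kinases. Cdkn1a, which encodes the p53 target p21 that blocks cyclin-dependent kinases, had 305 and 459 CPM in the Ehmt2+/+ sections and 1026 and 772 CPM in the Ehmt2fl/fl sections, from 3601 to 13368 UMIs per section. Cdkn1b, which encodes p27, had 21.5 and 46.8 CPM against 102 and 94.4 CPM. For both genes the genotypes did not overlap in CPM, where 91.4% of all genes with at least 10 UMIs were likewise higher in both Ehmt2fl/fl sections. Of the Olfr genes, 0% reached Cdkn1a or Cdkn1b. Cdkn2a, the locus of p16 and p19Arf, had 0.639 and 8.92 CPM against 17.9 and 22.8 CPM, near the limit of the background, with 2.53% to 4.34% of Olfr genes at or above it. Cdkn2c, which encodes p18, had 3.49 and 7.39 CPM against 19.9 and 19.8 CPM and was above background in 2 sections.

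All 48 members had higher CPM in both Ehmt2fl/fl sections than in either Ehmt2+/+ section, and so did nearly every other gene. The same separation held for 91.4% of all genes with at least 10 UMIs and for 94% of Olfr genes, so the count on this scale is no result about the members. Enzyme transcripts took the larger share of UMIs in the Ehmt2+/+ sections, which by construction lowers the CPM of every other gene there. Taken as CPM of the UMIs outside the enzyme genes (non-enzyme CPM), 35 of 48 members were higher in both Ehmt2fl/fl sections, against 45.9% of all genes. With the median Olfr level of the section also subtracted, a scale added after the data were seen, 25 of 48 members were higher in both Ehmt2fl/fl sections, where 27.7% of all genes were. On this scale 3 members, Aurka, Cenpe and E2f1, were lower in both, where 19.9% of all genes were, and each of them was at or below the Olfr median in both Ehmt2fl/fl sections. The exact two-sided permutation test over 2 against 2 sections cannot give a p below 0.33. In sums over a section, fewer cells of a type and less RNA per cell cannot be told apart.

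The classes were also counted in non-enzyme CPM with the Olfr median subtracted (adjusted CPM). Licensing genes were higher in both Ehmt2fl/fl sections in 7 of 9 cases, synthesis genes in 3 of 5 and mitosis genes in 10 of 21. G1 genes were higher in 3 of 9 cases and inhibitors in 2 of 4, beside 27.7% of all genes and 22% of Olfr genes. The 10 mitosis genes include Ccnb1, Plk1, Cdc20 and Kif11, which were above background in no section. The classes are small and were not tested, so a difference between them is not shown. Mcm2 had 44.9 and 43.1 adjusted CPM in the Ehmt2+/+ sections and 91.4 and 90.9 in the Ehmt2fl/fl sections, a ratio of means of 2.07. Mcm3 had 31.9 and 29.1 against 80.2 and 63.5, and Mcm4 had 18.9 and 24.6 against 65.8 and 51.9. In each of these 3 helicase genes the gap between genotypes was wider than the gap within either. Cdk1 likewise had 19.4 and 33.6 against 60.7 and 67.8 adjusted CPM. The share of all genes with such a gap was not computed. In the 14 fits described below, Mcm2 lay above the median of all genes in 4, Mcm3 in 8, and Mcm4 and Cdk1 in 13 each. Ccnd1 had 35.6 and 43.9 against 176 and 126, a ratio of means of 3.8. Ccnd1 thus kept the higher level in the Ehmt2fl/fl sections on all 3 scales.

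Other members overlapped between genotypes on the adjusted scale. Cdkn1a had 877 and 996 adjusted CPM in the Ehmt2+/+ sections and 1320 and 975 in the Ehmt2fl/fl sections, so that Ehmt2fl/fl replicate 2 fell below Ehmt2+/+ replicate 2. Cdkn1b had 61.0 and 91.7 against 122 and 105 and did not overlap. Ccnd2 had 149 and 73.8 against 93.3 and 61.9, and Cdk4 had 124 and 67.4 against 76.9 and 62.7. In Ccnd2 and Cdk4 the highest section was Ehmt2+/+ replicate 1, which turned the ratio of means below 1. Rrm2 had 19.8 and 46.1 against 46.5 and 38.6, and Mcm6 had 30 and 13.4 against 27.3 and 28.0. Mki67 had 5.06 and 8.95 against 9.96 and 17.8, while Top2a had 0.788 and 8.39 against 15.0 and 14.1. For these last 2 genes the groups did not overlap, but the gap between genotypes was narrower than the widest gap between sections of one genotype.

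**Figure D2:**
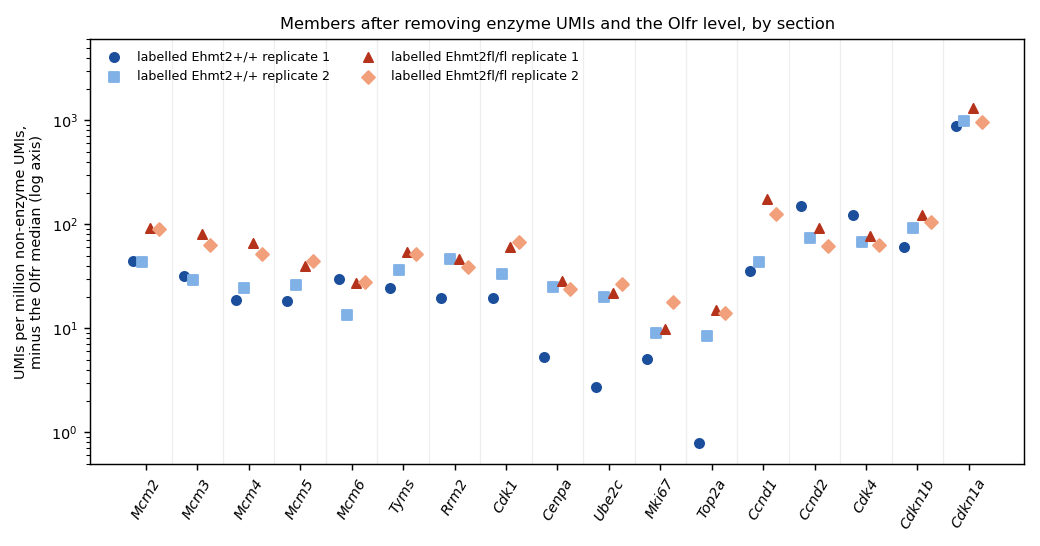
Adjusted CPM, that is CPM of the UMIs outside the acinar enzyme genes minus the median Olfr gene of the section (log axis), for 17 members, with 1 point per section and the genotypes in different colours. Ccnd1 lies at 35.6 and 43.9 in the Ehmt2+/+ sections and at 176 and 126 in the Ehmt2fl/fl sections, whereas the points of Cdkn1a, Ccnd2 and Cdk4 overlap between genotypes.

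None of the members passed the test across all genes. In edgeR's quasi-likelihood test on section sums with TMM factors and Benjamini-Hochberg adjustment, 0.11% of 20053 genes were called, 11 higher and 11 lower in Ehmt2fl/fl. Of the 48 members 47 entered the test and 0 were called, also at an unadjusted p under 0.05, and the lowest adjusted p was 0.863 in edgeR's quasi-likelihood test. DESeq2 likewise called 0 members, with 2 at an unadjusted p under 0.05. Kif20a was left out by the filter on low counts. In simulated data at the fitted dispersion of 0.351, described with the processing, edgeR's test called none of the genes given a large change. The 0 calls therefore cannot show that the members were unchanged. The median log2 fold change of the members was 0.45, beside 0.25 for all genes and 0.81 for Olfr genes. By class it was 0.29 for licensing, 0.14 for synthesis, 0.74 for mitosis, -0.09 for G1 and -0.09 for inhibitors. The class with the highest median, mitosis, was the one closest to the median of the Olfr genes and the one with the most members at background.

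Single members had wide errors in this fit. Ccnd1 had a log2 fold change of 0.96 (SE 0.91), Cdk1 of 0.47 (SE 0.79) and Mcm2 of 0.08 (SE 0.87). Ccnd2 had a log2 fold change of -1.55 (SE 0.97), Cdk4 of -1.46 (SE 0.95) and Cdkn1a of -0.68 (SE 1.22). None of these changes was as large as 2 standard errors. Standard errors of edgeR's fits were computed back from the fold change and the statistic of the same test. They are therefore no separate measure of error. The scaling decided the sign for several members. With library sizes in place of TMM factors, 1.93% of all genes were called higher in Ehmt2fl/fl, and the median of all genes moved to a log2 fold change of 1.69. Of the members, Ccnd1 (2.77, SE 0.39, adjusted p = 0.0333), Mcm2 (2.01, SE 0.32, adjusted p = 0.0408) and Mcm3 (2.17, SE 0.36, adjusted p = 0.0421) then passed edgeR's quasi-likelihood test. On that scale Ccnd2, Cdk4 and Cdkn1a turned to 0.64, 0.70 and 1.24. Without Ehmt2+/+ replicate 2, 24 members were called higher and 5 lower, but 82.8% of all genes and 1067 of 1107 Olfr genes, all of them higher, were called as well. In that fit the lone Ehmt2+/+ section is assumed to vary like the Ehmt2fl/fl sections.

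Members were also placed relative to the median of all genes. Over 14 fits, which varied scaling, filter, spots, tool and sections, the median of the members lay 0.15 to 0.48 above the median of all genes on the log2 scale. For 27 of 47 members the side of that median changed between fits, as for Mcm6, which ranged from -1.80 to 0.51. Another 14 lay above the median of all genes in every fit. These were Cdc6, Uhrf1, Cdkn2a and 11 mitosis genes, among them Top2a, Birc5, Ube2c and Mki67. The 11 also include Ccnb1, Plk1, Bub1b, Cdc20, Tpx2 and Kif11, which were above background in no section. The median of the Olfr genes also lay above that of all genes in the main fit. The share of all genes or of Olfr genes that kept their side in every fit was not computed. The remaining 6 members lay below the median of all genes in every fit, namely Ccnd2, Ccnd3, Cdk4, E2f1, Rrm2 and Cdkn1a. Relative to that median, the log2 fold change of Cdkn1a ranged from -1.79 without Ehmt2+/+ replicate 2 to -0.01 without Ehmt2+/+ replicate 1, that of Cdk4 from -2.79 to -0.14 and that of Ccnd2 from -2.91 to -0.11 in the same fits. These genes thus kept their side, but came close to the median of all genes once Ehmt2+/+ replicate 1 was left out. Within slides the members also had higher CPM in the Ehmt2fl/fl section in 48 of 48 cases each, and after TMM scaling in 37 of 48 on the slide of the replicate 1 sections and in 26 of 48 on the slide of the replicate 2 sections. On both slides 20 members were higher and 5 lower after that scaling. The shares of all genes and of Olfr genes that were higher within slides were not computed. These counts are therefore no result about the members.

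**Figure D3:**
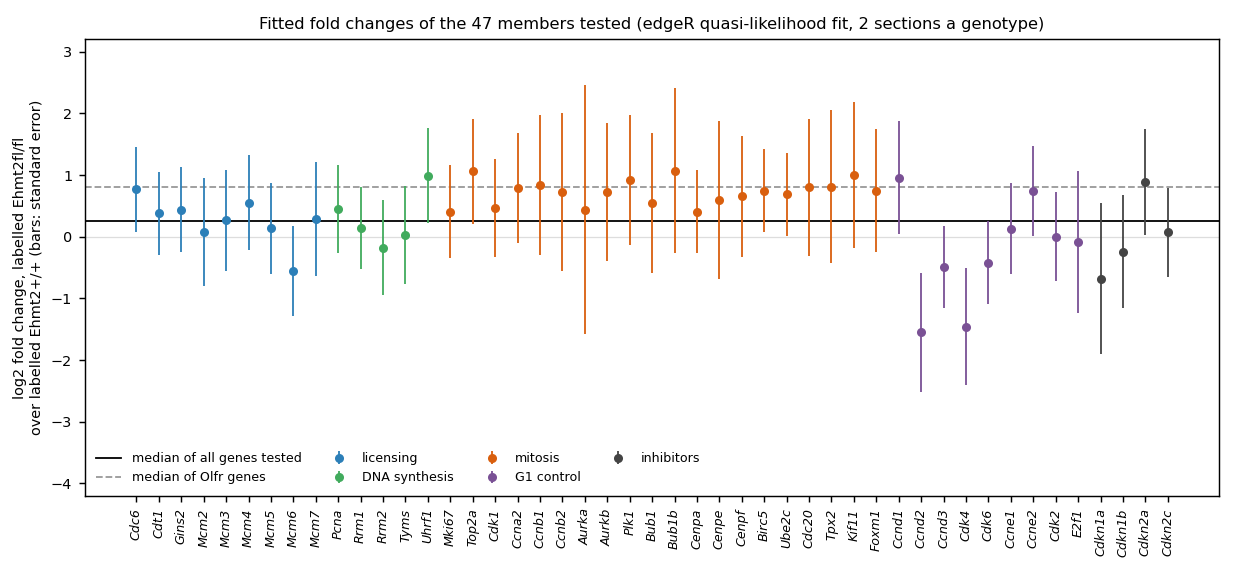
Log2 fold change (Ehmt2fl/fl over Ehmt2+/+) with its standard error for the 47 members tested with edgeR's quasi-likelihood test, grouped by class, with lines at the median of all genes (0.25) and at the median of the Olfr genes (0.81). Most mitosis genes lie near the Olfr line, and Ccnd2, Cdk4 and Cdkn1a lie lowest. The standard errors were computed back from the fold change and the test statistic.

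Further genes of the same pathways, taken from lists, were described in the same way. Above background in all 4 sections were 15 of 41 other replication genes, 14 of 48 other mitosis genes, 16 of 35 other regulators and 18 of 22 p53 targets, beside 39.3% of all genes. None of these genes was called in edgeR's quasi-likelihood test with TMM factors, and the median log2 fold changes were 0.10, 0.63, 0.06 and -0.83. In adjusted CPM, 23 of 41 other replication genes and 22 of 48 other mitosis genes were higher in both Ehmt2fl/fl sections, with 3 and 6 lower, beside 27.7% of all genes higher and 19.9% lower. Among other regulators 10 of 35 were higher and 8 lower, and among p53 targets 5 of 22 were higher and 9 lower, and the shares of regulators were near those of all genes. In the promoter windows, the E2F letters were present in 11 of 33 other replication genes and 4 of 40 other mitosis genes, and the CHR letters in 8 of 33 and 29 of 40.

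Some of these genes had levels well above background. Slbp, which binds the stem-loop of histone transcripts, had 20.6 and 60.5 CPM in the Ehmt2+/+ sections and 181 and 148 CPM in the Ehmt2fl/fl sections. Dut, the dUTPase that keeps uracil out of DNA, had 21.7 and 38.6 CPM against 113 and 97.0 CPM. Mdm2, the p53 target that degrades p53, had 109 and 164 CPM against 432 and 350 CPM. These 3 genes were higher in both Ehmt2fl/fl sections in CPM, as most genes were. Tob1, an antiproliferative gene, ran the other way, with 132 and 71.5 CPM against 47.3 and 45.5 CPM and a log2 fold change of -3.44 (SE 1.13, adjusted p = 0.392 in edgeR's quasi-likelihood test). Ccng1, a p53 target like Cdkn1a, had 242 and 70.6 CPM against 117 and 102 CPM, with its highest level in Ehmt2+/+ replicate 1. DESeq2, which called 1.43% of all genes, called Tob1, Ccng1 and the p53 target Ei24 lower in Ehmt2fl/fl. Without Ehmt2+/+ replicate 1, where edgeR called 1.89% of all genes, Tob1 and the kinase inhibitor gene Cdkn1c were called lower.

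Shares of spots with a count were compared after each spot was thinned at random to 500 UMIs. Among thinned spots, 15.2% and 20.7% held Cdkn1a in the Ehmt2+/+ sections against 38.7% and 29.9% in the Ehmt2fl/fl sections. Without thinning the shares were 77.6% and 34.6% against 60.9% and 54.8%, with the deepest section highest. Ccnd1 was found in 0.83% and 1.35% of thinned spots against 7.05% and 5.49%, and Mcm2 in 0.846% and 1.32% against 3.96% and 3.87%. The exact 95% binomial intervals of the Ccnd1 shares, which cover counting error only, ran from 0.619% to 1.09% and from 1.1% to 1.63% in the Ehmt2+/+ sections and from 6.44% to 7.7% and from 4.95% to 6.08% in the Ehmt2fl/fl sections. Cdk1 was found in 0.537% and 1.21% against 2.65% and 3.19%. Mki67 was found in 0.13% and 0.457% against 0.848% and 1.45%. The median Olfr gene was found in 0.0163% and 0.28% of thinned spots against 0.432% and 0.681%, and its 95th percentile in 0.0602% and 0.495% against 0.864% and 1.16%. Mki67 therefore lay within the Olfr range in Ehmt2+/+ replicate 2 and Ehmt2fl/fl replicate 1, while Mcm2, Ccnd1 and Cdk1 lay above it in all 4 sections. All 48 members were found in more thinned spots in both Ehmt2fl/fl sections than in either Ehmt2+/+ section, but so were 88.2% of all genes. With spots thinned to 500 UMIs of genes other than acinar enzymes, 33 of 48 members separated in this way, beside 46.1% of all genes. Cdkn1a then overlapped between genotypes, with 36.1% and 39.4% of spots against 47.1% and 36.8%. Without thinning, 32 of 48 members separated, beside 51.7% of all genes. Thinned to 1000 UMIs, 47 of 48 did, beside 90.3% of all genes.

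The mitosis genes were then checked for counts in the same spots. Pairs of mitosis genes shared a spot 0.875 and 1.15 times as often in the Ehmt2+/+ sections, and 0.993 and 0.898 times as often in the Ehmt2fl/fl sections, as the depth of each spot and the level of each gene give. Pairs of licensing and synthesis genes gave 0.954 and 1.02 against 1.01 and 0.958. Pairs of Olfr genes, measured the same way, gave 0.846 and 1.35 against 1.09 and 0.955. The order of the sections was the same for mitosis pairs and for Olfr pairs, with Ehmt2+/+ replicate 2 highest and Ehmt2+/+ replicate 1 lowest. Spots with at least 2 mitosis genes numbered 60 and 101 in the Ehmt2+/+ sections, where 66.2 and 101 were computed, and 269 and 587 in the Ehmt2fl/fl sections, where 275 and 596 were computed. Of the 21 mitosis genes, 13 were above background in no section, so many of these pairs join background counts. Together the mitosis genes had 19.8 and 164 CPM in the Ehmt2+/+ sections against 319 and 411 CPM. With the mean Olfr level subtracted for each gene, 13.9 and 53.5 against 132 and 138 CPM remained. Mitosis pairs exceeded Olfr pairs in Ehmt2+/+ replicate 1 only, where both were fewer than computed. Licensing and synthesis pairs exceeded Olfr pairs there and in Ehmt2fl/fl replicate 2, again with fewer than computed. In spots thinned to 500 UMIs mitosis pairs gave 2.43, from 1 pair, and 1.51 against 1 and 1.09. Olfr pairs in thinned spots gave 1.61 and 1.48 against 1.15 and 1.11. These pairs cannot show whether the mitosis genes above background cluster.

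**Figure D4:**
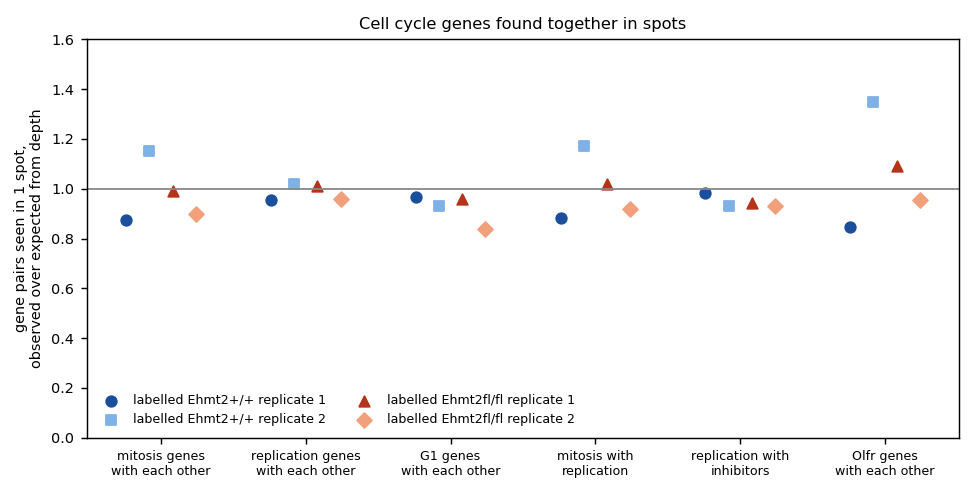
Observed over computed number of spots shared by pairs of genes, for pairs within and between classes of members and for pairs of Olfr genes, with 1 point per section. The mitosis pairs lie between 0.875 and 1.15 and the Olfr pairs between 0.846 and 1.35.

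Spots with at least 2 mitosis genes were set beside all other spots of their section. The lymphoid marker genes were 0.793 and 2.79 times as high per UMI in the marked spots of the Ehmt2+/+ sections and 2 and 1.61 times as high in those of the Ehmt2fl/fl sections. Olfr genes in the same spots were 0.713 and 1.85 times as high against 1.18 and 1.07 times. The lymphoid ratio exceeded the Olfr ratio in every section, and it rested on 10 and 58 lymphoid UMIs in the Ehmt2+/+ sections and on 248 and 688 in the Ehmt2fl/fl sections. Licensing genes were 1.16 and 2.11 times as high in marked spots against 1.11 and 1.04 times, and the kinase inhibitors 0.941 and 0.82 times against 1.04 and 0.992 times. The acinar enzyme genes were 1.01 and 0.802 times as high against 0.844 and 0.903 times. The lymphoid ratio is not set here beside those of other cell type lists, so it is not shown to be particular to lymphoid genes. The part of lymphoid cells in the counts of the mitosis genes was not tested.

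Cdkn1a, Ccnd1, Mcm2 and Cdk1 were then followed across kinds of spots. Spots with at least 2 lymphoid UMIs that made up at least 10 per 10000 were taken as lymphoid. The remaining spots of a section were split at their median enzyme share into enzyme-high and enzyme-low spots. Part of the lymphoid gene counts stood at the Olfr level in every section. How many spots would reach the lymphoid limit by scatter of counts alone was not computed. The name lymphoid therefore stands for the limit, and these spots are not shown to hold lymphoid cells. Lymphoid spots numbered 3 and 136 in the Ehmt2+/+ sections and 390 and 642 in the Ehmt2fl/fl sections, so the first of these sections gives no lymphoid value. In enzyme-high spots, Cdkn1a had 815 and 1119 non-enzyme CPM in the Ehmt2+/+ sections and 1626 and 1273 in the Ehmt2fl/fl sections. In enzyme-low spots Cdkn1a had 977 and 919 against 1104 and 755. Cdkn1a was thus higher in enzyme-high than in enzyme-low spots in 3 of the 4 sections, with Ehmt2+/+ replicate 1 the exception. The split and this scale both use the enzyme UMIs. A gene with equal CPM of all UMIs in both kinds of spots would be higher in enzyme-high spots in non-enzyme CPM. CPM of all UMIs is not given for these spots, so the order is not shown to be one of Cdkn1a itself. In lymphoid spots Cdkn1a had 516 in Ehmt2+/+ replicate 2 and 977 and 721 in the Ehmt2fl/fl sections, below the enzyme-high spots of the same section each time. At a limit of 30 lymphoid UMIs per 10000, Cdkn1a had 415 in Ehmt2+/+ replicate 2 and 272 and 361 in the Ehmt2fl/fl sections, from 10, 30 and 59 UMIs, so its order between genotypes in lymphoid spots rests on the limit.

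Ccnd1 was higher in the Ehmt2fl/fl sections in every kind of spot. In enzyme-high spots Ccnd1 had 30.2 and 44.1 non-enzyme CPM in the Ehmt2+/+ sections against 185 and 148 in the Ehmt2fl/fl sections, and in enzyme-low spots 46.0 and 64.3 against 193 and 146. In lymphoid spots Ccnd1 had 84.2, from 8 UMIs, in Ehmt2+/+ replicate 2 and 153 and 110 in the Ehmt2fl/fl sections. Mcm2 had 43.1 and 43.5 in enzyme-high spots against 98.0 and 120, and 49.8 and 63.7 in enzyme-low spots against 108 and 102. Cdk1 had 17.6 and 33.9 in enzyme-high spots against 70.8 and 78.4, and 24.0 and 55.5 in enzyme-low spots against 70.2 and 88.1. For Mcm2, Cdk1 and Ccnd1 the genotypes did not overlap in enzyme-high or in enzyme-low spots on this scale, from which the Olfr level was not subtracted. The share of all genes that did the same in these spots was not computed. Over whole sections, 45.9% of all genes and 46.5% of Olfr genes were higher in both Ehmt2fl/fl sections in non-enzyme CPM. Since these 3 genes had already separated over whole sections, this is no independent result. In lymphoid spots Cdk1 had 83.4 and 91.0 in the Ehmt2fl/fl sections, from 31 and 67 UMIs and with no test. These were the highest values of the 3 kinds of spots in both sections, with lymphoid spots named by the limit only. In Ehmt2fl/fl replicate 2 the gap to the 88.1 of enzyme-low spots was small for a value from 67 UMIs. The lymphoid values of Cdk1 in Ehmt2+/+ replicate 2 and at the stricter limit, and those of Mcm2, are not given here.

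**Figure D5:**
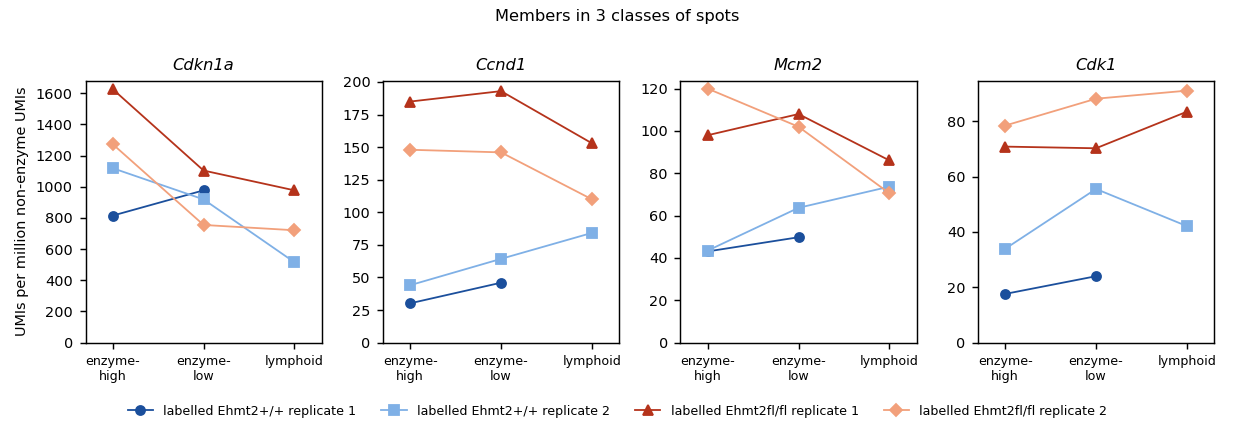
non-enzyme CPM of Cdkn1a, Ccnd1, Mcm2 and Cdk1 in enzyme-high, enzyme-low and lymphoid spots of each section, with no lymphoid value for Ehmt2+/+ replicate 1, which had 3 such spots. Ccnd1 lies between 30.2 and 64.3 in the enzyme-high and enzyme-low spots of the Ehmt2+/+ sections and between 146 and 193 in those of the Ehmt2fl/fl sections.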

How the data were processed

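The authors counted probe-based Visium CytAssist libraries of 4 sections with Space Ranger 2.0.1 against the mouse reference mm10 and the mouse Visium probe set 1.0, and deposited raw UMI counts per gene and spot, off-tissue spots included. Tissue marks carry no barcode and were not joined, so spots with at least 500 UMIs were used. The 13898 barcodes shared by all 4 sections are slide positions and not shared cells. Of 32589 features, 304 marked as deprecated were left out. Counts were summed per section (6643747 to 43784930 UMIs), the section being the replicate, with 2 per group. Each section carries its own animal number in the labels. Python 3.11.15 and R 4.3.3 were used.

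Genotypes were compared with edgeR 4.0.16 (quasi-likelihood test, TMM factors, filterByExpr at 10 counts, adjusted p under 0.05 after Benjamini-Hochberg), with DESeq2 1.42.0 as an alternative. The script was tested on simulated data. At the fitted dispersion of 0.351 it called 0 of 194 genes changed by a log2 fold of 2, and at a dispersion of 0.05 it called 185 of 198. Alternatives varied scaling, filter, spots, background genes, thinning and sections. Computed pair counts condition on the depth of each spot. Genes named in the text are the members and, of each further list, the 4 with the highest mean log CPM among those above background in all 4 sections, plus any called gene. The members and lists were chosen with earlier results of these data known. Promoters are RefSeq windows on GRCm38.p6. Of the members, 10 had no window there and were not searched.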

Additional observations from a re-analysis of the deposited data

How the results depend on the processing

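The number of members called ranged from 0 to 29 when 1 section was left out, with all 29 calls from the fit without Ehmt2+/+ replicate 2. Scaling by library size alone gave 3 calls and a median log2 fold change of the members of 1.88, and the other settings gave 0 calls. In the further pathway lists DESeq2 called 3 genes, and leaving out 1 section gave 0 to 103, with 2 calls without Ehmt2+/+ replicate 1 and 103 without Ehmt2+/+ replicate 2. These lists hold 41, 48, 35 and 22 genes. Of all genes, DESeq2 called 1.43%, and edgeR called 1.89% without Ehmt2+/+ replicate 1 and 82.8% without Ehmt2+/+ replicate 2. The 29 and 103 calls of that last fit are therefore no result about the members or the lists. Against vomeronasal and taste receptor genes 4 members were above background in all 4 sections, and the share of all genes that were was not computed. With the Olfr median subtracted from non-enzyme CPM, a setting added after the data were seen, 25 members were higher in both Ehmt2fl/fl sections, where 27.7% of all genes were. For spots with at least 3 mitosis genes, observed over computed numbers were 0.702 and 1.64 in the Ehmt2+/+ sections, from 3 and 11 spots. In the Ehmt2fl/fl sections they were 0.98 and 0.853, from 29 and 98 spots. Without lymphoid spots they were 0.702 and 1 against 0.766 and 0.863, from 3 and 6 against 19 and 82 spots. For spots with at least 2 mitosis genes, the same ratio in spots thinned to 500 UMIs was 2.45 and 1.28 in the Ehmt2+/+ sections, the first from 1 spot, and 1.08 and 1.1 in the Ehmt2fl/fl sections, and without lymphoid spots it was 0.96 and 0.975 in the Ehmt2fl/fl sections. Around spots with at least 3 mitosis genes, lymphoid markers were 8.57 times as high in Ehmt2+/+ replicate 2, from 27 lymphoid UMIs in 11 spots. In Ehmt2fl/fl replicate 1 they were 4.21 times as high, from 69 UMIs in 29 spots. Ehmt2+/+ replicate 1 gave 1.08 times, from 1 UMI. These ratios are not set beside those of Olfr genes or of Ehmt2fl/fl replicate 2. In spots of 500 to 2000 UMIs lymphoid markers were 1.61 and 1.25 times as high in the Ehmt2fl/fl sections. With a limit of 30 lymphoid UMIs per 10000, Cdkn1a in lymphoid spots was 272 and 361 non-enzyme CPM in the Ehmt2fl/fl sections, against 415 in Ehmt2+/+ replicate 2. The log2 fold change turned sign for Mcm2 (-0.36 with DESeq2, -0.51 without Ehmt2+/+ replicate 2, -0.04 without Ehmt2fl/fl replicate 1) and Mcm3 (-0.16 with DESeq2, -0.31 without Ehmt2+/+ replicate 2), and among the fits without 1 section it was highest (0.76 and 0.91) without Ehmt2+/+ replicate 1. With library sizes they turned for Ccnd2 (0.64), Cdk4 (0.70), Cdkn1a (1.24) and Cdkn1b (1.53). Cdkn1b was 0.28 with upper-quartile factors, and without Ehmt2+/+ replicate 1 Cdkn1a was 0.03 and Cdkn1b 0.12, against lowest values of -1.29 and -0.66 without Ehmt2+/+ replicate 2. The cause of these changes was not tested. Sections of the same number share a slide, and with slide as a replicate block, added after the data were seen, 0 members were called.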
